A study of Mus musculus with 5 samples.

Results

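The genes described are the nuclear-encoded subunits of oxidative phosphorylation, the respiratory chain and ATP synthase of mitochondria. They were chosen with earlier results of these data known, and the rows were taken by symbol. These were all gene rows whose name begins with Nduf followed by a, b, c, s or v and a digit. Also taken were Ndufab1, Sdha to Sdhd, and names that begin with Uqcr, Uqcc, Cox4 to Cox8 or Atp5. Names that carry the pseudogene tag were left out. This gave 87 of the 32793 rows, made up of 38 rows for complex I, 4 for complex II, 11 for complex III, 18 for complex IV and 16 for complex V. Complexes were assigned from the symbol, although Ndufa4 is known to sit in complex IV, Uqcc1, Uqcc2 and Uqcc3 are assembly factors of complex III, Cox7a2l joins complexes into supercomplexes, and Atp5s is not a core subunit of the synthase. RNA came from colon spheroids, balls of epithelial cells grown in culture, of 2 genotypes. The mutant group, called NDD (2 libraries, titled RA), expressed the dimerization-deficient alleles Notch1DD and Notch2DD, and the other group was WT (3 libraries). Both groups were of a mixed strain background, mainly C57Bl6 with a portion of FVB. The series is titled as a study of Notch dimerization in intestinal homeostasis. The labels used here do not say whether the libraries of a group came from separate mice or cultures, so the p-values measure the spread between these libraries, which may be technical. Age, passage and culture medium of the spheroids are not given in the sources used here.

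Complex I takes electrons from NADH and complex II from succinate, complex III passes them on to cytochrome c, and complex IV hands them to oxygen. The proton gradient that complexes I, III and IV build up drives ATP synthase, complex V. Colonocytes near the surface of the colon draw much of their energy from mitochondrial oxidation of butyrate, and differentiated colon epithelium is known for a higher mitochondrial content than the dividing cells of the crypt base. A few subunits of complexes I, III, IV and V are encoded by mitochondrial DNA, and 0 of the 13 listed genes of that kind were rows of the table, so they were not analysed here.

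Library totals ran from 19192389 to 23064000 estimated counts, and 13501 genes had enough counts to be tested. Notch1 (log2 fold change NDD over WT -0.17, edgeR adjusted p 0.584) and Notch2 (-0.43, edgeR adjusted p 0.505) were transcribed in every library, and gene-level counts do not show which allele was read. Exact two-sided permutation tests, which double the smaller one-sided p, gave p = 0.2 and p = 0.6 for them. For 2 libraries against 3 the smallest p of a test in this form is 0.2. Epithelial markers summed to between 13071 and 14618 counts per 1000000 (CPM, scaled by TMM library factors) in the 5 libraries. Fibroblast markers summed to at most 43.7 CPM, in WT replicate 3, of which Fn1 alone was 42.6 CPM. Lum and Thy1 were at 0 counts throughout. Immune markers summed to at most 8.49 CPM with Cd4 and Cd8a at 0, endothelial markers to at most 7.54 CPM with Kdr and Emcn at 0, and muscle markers to at most 4.68 CPM with Cnn1 at 0. The highest endothelial and muscle sums, both in NDD replicate 2, were mostly Vwf (7.35 CPM) and Tagln (4.31 CPM).

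The comparison of NDD with WT asked whether the subunit genes were expressed at other levels when both receptors carried the dimerization-deficient alleles. A single member, Ndufs5 of complex I, had an edgeR adjusted p under 0.05, and it was lower in NDD. This was 1 of the 82 members with enough counts to be tested, and 0.0889% of all 13501 tested genes were called by the same rule. Summed with its near-identical pseudogene BC002163, Ndufs5 had a log2 fold change of 0.06 (edgeR adjusted p 0.858), as described below. Without WT replicate 1 or WT replicate 2 edgeR called 0 members, and without WT replicate 1 it called 0 genes in all. The other members lay close to the WT level and more of them lay above it than below. The log2 fold change was above 0 in 60 tested members and below 0 in 22, and its median was 0.13, beside a median of -0.0047 and a share of 49.5% above 0 over all tested genes. It was within 0.25 of 0 in 62 members and within 0.5 of 0 in 77. In bulk RNA a change in the number of cells of a type and a change in the RNA per cell cannot be told apart.

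In 30 tested members both NDD libraries were above all 3 WT libraries, which is 36.6% of the 82, beside 15.8% of all tested genes. In 3 members, Ndufs5, Ndufa4 and Sdhc, both NDD libraries were below all WT libraries, which is 3.66% beside 16.2% of all tested genes. The groups overlapped in the remaining 49. At an unadjusted p under 0.05 there were 6 members, or 7.32%, beside 11.2% of all tested genes: 5 were higher in NDD and 1, Ndufs5, was lower. The members thus showed many small differences of the same sign. Whether their share of low p-values differs from that of the genes at large was not tested. Without each library in turn the number of members above 0 ran from 53 (without WT replicate 3) to 69 (without WT replicate 2). Leaving a library out can only keep or raise the number of members whose groups do not overlap, so these numbers are read beside the same share over all genes. Without NDD replicate 1 there were 45 members with NDD higher (54.9%, beside 38.1% of all tested genes) and 14 with NDD lower (17.1%, beside 38.6%). Without each of the other libraries there were 30 to 43 with NDD higher (36.6 to 52.4%, beside 17.6 to 26.1% of all tested genes). Those with NDD lower were 4 to 8 (4.88 to 9.76%, beside 18.6 to 27.4%).

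**Figure D1:**
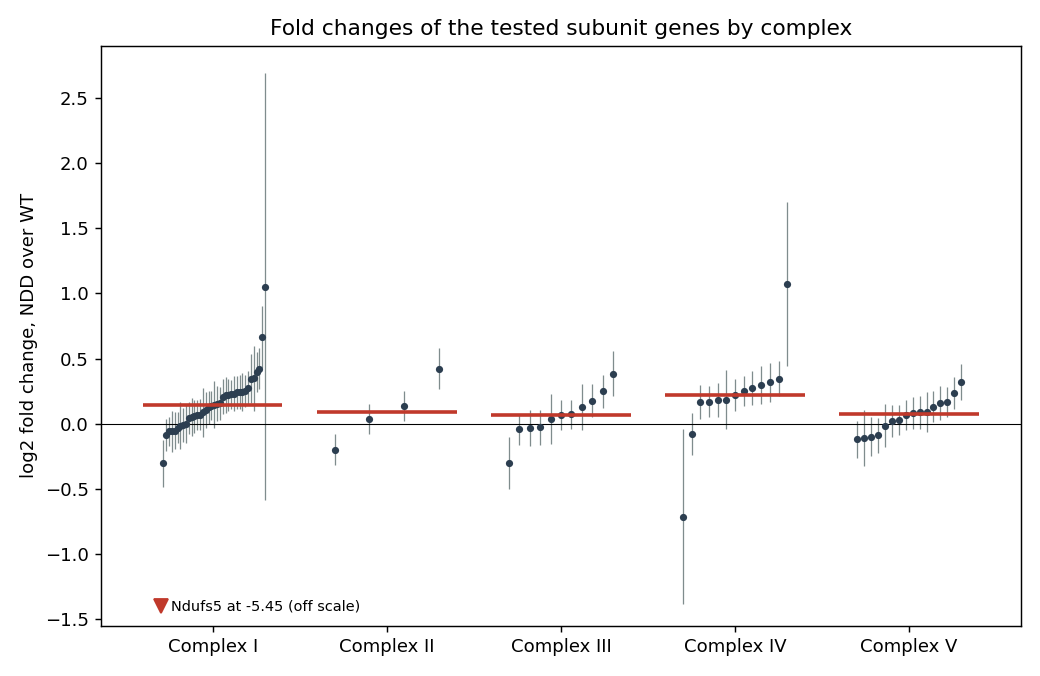
Log2 fold change of each tested member, NDD over WT, by complex (points, with bars of 1 standard error; red lines are medians per complex). Most points lie between -0.25 and 0.5, the median of complex IV is the highest at 0.22, and Ndufs5 at -5.45 is below the axis.

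Ndufs5 encodes an accessory subunit of complex I, and its gene lies on the minus strand at chr4:123712710-123718202 of mm10. A near-identical processed pseudogene, BC002163, lies on the plus strand at chr16:42955631-42955949 and is a row of its own in the table. The sequences are shown because the coding bases of these rows are nearly the same. Below are the first 300 bases of the coding sequence of Ndufs5 and of the matching part of BC002163, from GENCODE M21, with capitals at the 2 positions that differ between them. Over all 318 coding bases they also differ at 2, an identity of 99.4%, and the longest stretch without a difference is 213 bases.
Ndufs5: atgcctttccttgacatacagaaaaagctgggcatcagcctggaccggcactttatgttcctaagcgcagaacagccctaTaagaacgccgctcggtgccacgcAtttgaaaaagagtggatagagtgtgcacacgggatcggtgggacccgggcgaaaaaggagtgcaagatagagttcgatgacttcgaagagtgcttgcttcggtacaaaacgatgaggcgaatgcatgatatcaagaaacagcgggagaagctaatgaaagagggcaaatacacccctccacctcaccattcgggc
BC002163: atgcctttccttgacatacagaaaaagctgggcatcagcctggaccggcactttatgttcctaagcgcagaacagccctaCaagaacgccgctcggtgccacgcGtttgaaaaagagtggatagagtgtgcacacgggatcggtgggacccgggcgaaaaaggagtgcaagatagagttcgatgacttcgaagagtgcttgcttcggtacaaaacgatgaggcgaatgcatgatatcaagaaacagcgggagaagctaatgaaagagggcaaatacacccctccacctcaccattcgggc

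For Ndufs5 the table lists 11 and 8 counts in NDD, against 324, 339 and 586 in WT replicates 1, 2 and 3. Both NDD libraries were far below every WT library. The mean level was 0.428 ± 0.0751 CPM in NDD (SD, n = 2) against 18.9 ± 5.45 CPM in WT (SD, n = 3), for a log2 fold change of -5.45 (edgeR SE 0.39, adjusted p 0.0167). Counts of BC002163 were 698 and 660 in NDD and 309, 376 and 0 in WT, so the copy was highest where Ndufs5 was lowest and at 0 where Ndufs5 was highest. The log2 fold change of BC002163 was 1.51 (edgeR SE 1.28, adjusted p 0.596).

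Summed over both rows, the counts were 709 and 668 in NDD and 633, 715 and 586 in WT, and the groups overlapped. The sum came to 31.1 ± 0.201 CPM (NDD) and 29.8 ± 4.08 CPM (WT), and in a fit on summed copies its log2 fold change was 0.06 (edgeR SE 0.16, adjusted p 0.858). In that fit 0 members had an edgeR adjusted p under 0.05. Ndufs5 took 1.55% of the summed counts in NDD replicate 1 (95% Wilson interval 0.868 to 2.76%) and 1.20% in NDD replicate 2 (0.608 to 2.35%). Its share was 51.2% in WT replicate 1 (47.3 to 55.1%), 47.4% in WT replicate 2 (43.8 to 51.1%) and 100% in WT replicate 3 (lower limit 99.3%). The 5 libraries thus took 3 separate levels of the share and the WT shares spanned 47.4 to 100%. These intervals cover counting error only. The call of Ndufs5 was also lost without WT replicate 1 (log2 fold change -5.53, edgeR adjusted p 0.147) and without WT replicate 2 (-5.58, edgeR adjusted p 0.0561). Over all alternatives on single rows its adjusted p ranged from 3.78e-28 (DESeq2) to 0.147.

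**Figure D2:**
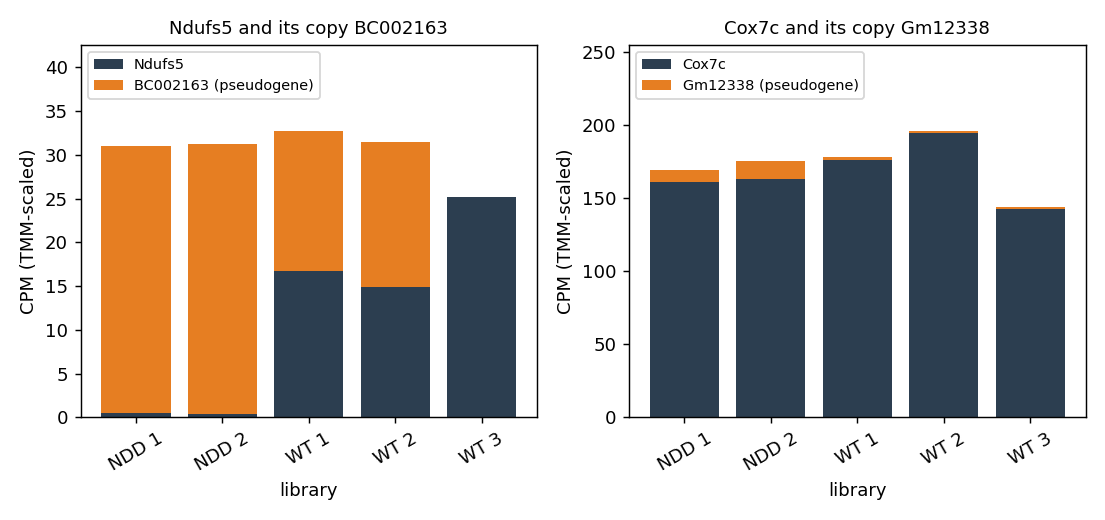
Stacked bars of CPM per library for Ndufs5 with BC002163 (left) and Cox7c with Gm12338 (right), member in dark and pseudogene in orange. The summed height for Ndufs5 lies between 25.1 and 32.8 CPM in all 5 libraries, while the dark part is under 0.5 CPM in both NDD libraries.

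Cox7c, a small subunit of complex IV, has a copy of the same kind. Its gene lies on the minus strand at chr13:86044816-86046904, and the pseudogene Gm12338 on the minus strand at chr11:75599763-75599954. The 189 coding bases of Cox7c were found in Gm12338 with 0 differences, so reads inside them fit both places equally.
Cox7c and Gm12338: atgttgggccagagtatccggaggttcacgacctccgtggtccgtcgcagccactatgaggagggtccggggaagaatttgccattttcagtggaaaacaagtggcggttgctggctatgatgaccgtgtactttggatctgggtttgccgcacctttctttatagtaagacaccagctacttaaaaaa

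Cox7c had 161 and 163 CPM in NDD and 176, 194 and 143 CPM in WT. The NDD libraries lay inside the WT range, and the log2 fold change was -0.08 (edgeR SE 0.16, adjusted p 0.819). Gm12338 had 186 and 273 counts in NDD and 39, 43 and 24 in WT. All NDD values were above all WT values, and the log2 fold change was 2.67 (edgeR SE 0.38, adjusted p 0.104). The copy took 4.81% and 7.27% of the pair's counts in NDD and between 0.716% and 1.13% in WT, and summing the copies moved the log2 fold change of Cox7c to -0.003. Of the 87 members, 19 share at least 50% of the 31-base runs of the shorter gene with another GENCODE gene. For 3 of the 19 such a copy is a row of the table, and for 2, Ndufs5 and Cox7c, that row has counts. How reads of the remaining members with a copy were divided among places in the genome cannot be read from these tables.

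Complex I had 38 members, all of which were tested. The log2 fold change was above 0 in 28 and below 0 in 10, with a median of 0.14. Apart from Ndufs5 none was called by edgeR. Ndufs5 and 3 others, which were higher, had an unadjusted p under 0.05, or 10.5% beside 11.2% of all tested genes, a share near the background. In 14, or 36.8% beside 15.8% of all tested genes, NDD was higher with no overlap. The core subunits, which carry the flavin and iron-sulfur clusters or line the quinone pocket, had small differences. Ndufv2, an iron-sulfur subunit of the NADH-binding arm, had 107 and 113 CPM in NDD and 97.3, 95.3 and 84.5 CPM in WT. Its NDD values were above all WT values, for a log2 fold change of 0.25 (edgeR SE 0.12, adjusted p 0.471). Ndufv1, the flavin subunit, had 143 and 147 CPM in NDD and 133, 137 and 125 CPM in WT, also without overlap (0.14, SE 0.11, edgeR adjusted p 0.580). Ndufs1, Ndufs3, Ndufs7 and Ndufs8 overlapped between groups, with log2 fold changes from -0.09 for Ndufs8 through -0.03 for Ndufs1 and 0.04 for Ndufs3 to 0.23 for Ndufs7.

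Of the members with a complex I symbol, Ndufa4, Ndufa3 and Ndufab1 had the highest levels per length, and Ndufa4 is the one known to sit in complex IV. Ndufa4 had 112 and 100.1 CPM in NDD and 117, 117 and 159 CPM in WT. Both NDD libraries were lowest, and WT replicate 3 stood above the other WT libraries, with a log2 fold change of -0.30 (edgeR SE 0.18, adjusted p 0.496). Ndufab1, the mitochondrial acyl carrier protein, had 108 and 108 CPM in NDD and 107, 118 and 114 CPM in WT, for a log2 fold change of -0.06 (SE 0.11). Ndufa3 had 40.6 and 44.9 CPM in NDD and 38.4, 37.9 and 31.9 CPM in WT, with no overlap and a log2 fold change of 0.25 (edgeR SE 0.15, adjusted p 0.497). A set of 3 accessory subunits of complex I, named after their values were seen, had an unadjusted p under 0.05. Ndufa6 had 68.8 and 116 CPM in NDD and 57.8, 65.7 and 51.2 CPM in WT, so the replicates of NDD were further apart than its lower replicate and the highest WT library (0.67, SE 0.24, edgeR adjusted p 0.437). Ndufa1 had 17.7 and 19.6 CPM in NDD and 14.6, 14.2 and 13.0 CPM in WT (0.42, SE 0.16, edgeR adjusted p 0.437). Ndufb9 had 101 and 122 CPM in NDD and 86.4, 93.0 and 74.5 CPM in WT (0.40, SE 0.15, edgeR adjusted p 0.437). In Ndufa1 and Ndufb9 the groups did not overlap either.

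The 4 subunits of complex II, succinate dehydrogenase, had differences of both signs, and 0 were called by edgeR. Only 1 of the 4, Sdhb, had an unadjusted p under 0.05, or 25% beside 11.2% of all tested genes. Sdhb, the iron-sulfur subunit, had 136 and 178 CPM in NDD and 117, 126 and 109 CPM in WT. Both NDD libraries were above every WT library, for a log2 fold change of 0.42 (edgeR SE 0.15, adjusted p 0.437). Without NDD replicate 1 its log2 fold change was 0.60 and its edgeR adjusted p 0.0469, a fit in which the lone NDD library is assumed to vary like the WT libraries, and without NDD replicate 2 the log2 fold change was 0.23. Sdha, the flavin subunit, had 326 and 346 CPM in NDD and 312, 309 and 295 CPM in WT, a smaller difference without overlap (0.14, SE 0.11, edgeR adjusted p 0.584). Sdhc, a membrane anchor, went the other way, with 194 and 181 CPM in NDD and 221, 224 and 203 CPM in WT (-0.20, SE 0.12, edgeR adjusted p 0.497). Sdhd, the other anchor, had 201 and 186 CPM in NDD and 184, 187 and 195 CPM in WT, and its groups overlapped (0.04, SE 0.11). On the per-length scale of transcripts per 1000000 (TPM) the 4 genes were within a narrow band, from 191 for Sdha to 337 for Sdhc as means over all libraries.

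In complex III the log2 fold change was above 0 in 7 members and below 0 in 4, with a median of 0.07. An unadjusted p under 0.05 was found in 0 members, beside 11.2% of all tested genes. Uqcrc2, a core protein of the matrix side, had groups without overlap, at 255 and 259 CPM in NDD and 241, 248 and 245 CPM in WT (0.07, SE 0.11). Uqcrc1, its partner, had 362 and 351 CPM in NDD and 351, 391 and 359 CPM in WT (-0.04, SE 0.12). Uqcrfs1, the Rieske iron-sulfur protein, had 174 and 176 CPM in NDD and 160.0, 179.6 and 162 CPM in WT (0.07, SE 0.12). For the latter pair the groups overlapped. The largest log2 fold changes in either direction were those of Uqcrq, at 152 and 206 CPM in NDD and 132, 153 and 125 CPM in WT (0.39, SE 0.17, edgeR adjusted p 0.460), and of the assembly factor Uqcc2. Uqcc2 had 24.4 and 17.5 CPM in NDD and 24.1, 24.3 and 29.1 CPM in WT (-0.30, SE 0.20, edgeR adjusted p 0.516). Each of these rested mainly on NDD replicate 2, since NDD replicate 1 lay within the WT range. Uqcr10, Uqcr11 and Uqcrb, the members of complex III with the highest TPM (537 to 709 on average), had log2 fold changes of 0.13, -0.03 and -0.03. The median of complex III was -0.01 without WT replicate 3.

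Complex IV showed the largest median, 0.22. Of its 18 members 13 were tested, 11 were above 0 and 2 below, and 8 were higher in NDD with no overlap, which is 61.5% beside 15.8% of all tested genes. None was called by edgeR, and 1, Cox7b, had an unadjusted p under 0.05, or 7.69% beside 11.2% of all tested genes. Cox7b had 154 and 164 CPM in NDD and 129, 136 and 109.9 CPM in WT, for a log2 fold change of 0.35 (edgeR SE 0.14, adjusted p 0.437). Cox5b, a subunit on the matrix side, had 209.9 and 232 CPM in NDD and 174, 202 and 156 CPM in WT (0.32, SE 0.15, edgeR adjusted p 0.466). Cox4i1, the usual form of the largest nuclear-encoded subunit, had 337 and 364 CPM in NDD and 298, 303 and 281 CPM in WT (0.25, SE 0.12, edgeR adjusted p 0.465). In all 3 the lower NDD library was above the highest WT library. Cox5a showed the same order with a smaller difference, at 219.7 and 230.5 CPM in NDD and 203, 209.6 and 187 CPM in WT (0.17, SE 0.12, edgeR adjusted p 0.534). Cox6a1, Cox6b1, Cox6c and Cox7a2 were the other members without overlap, with log2 fold changes of 0.30, 0.28, 0.22 and 0.18. The members with a complex IV symbol below 0 were Cox7c, described above, and the scarce Cox6b2, beside Ndufa4 among the complex I symbols.

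**Figure D3:**
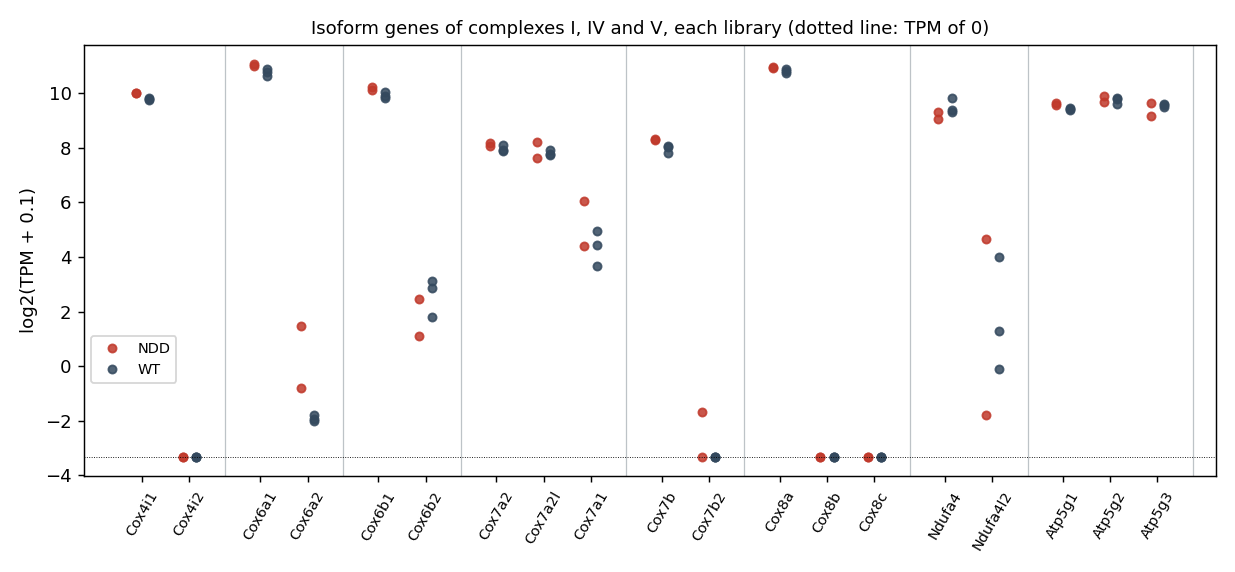
TPM of each member of the isoform sets on the log2(TPM + 0.1) scale, 1 point per library (NDD red, WT dark blue; the dotted line is a TPM of 0). In the sets of complex IV the ubiquitous form lies well above the tissue-restricted one, with Cox4i2, Cox8b and Cox8c at 0 in all 5 libraries.

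Several complex IV subunits exist as a ubiquitous form and one known from muscle, lung or testis. The colon spheroids used the ubiquitous forms. Cox4i2, Cox8b and Cox8c had 0 counts throughout, and by a limit of 3 counts a level of up to 0.155 CPM could have been missed in the smallest library. Cox6a1, the form found in most tissues, held 99.9% of the Cox6a TPM in NDD replicate 2 and more than that in the other libraries, while Cox6a2, known from heart and skeletal muscle, had 3 and 17 counts in NDD and 1 count in each WT library. Cox6b2 and Cox7b2, both known from testis, were also scarce, with 0.306 to 1.45 CPM for Cox6b2 and 1 count in 1 library for Cox7b2. Cox7a1, another muscle form, was the exception in that it reached measurable levels, at 20.8 and 66.0 TPM in NDD and 21.4, 31.2 and 12.7 TPM in WT. This was 4.09% and 10.4% of the summed TPM of Cox7a1, Cox7a2 and Cox7a2l in NDD and 2.71 to 5.71% in WT. Cox7a2l, which is not a tissue form, is thus part of the total. The log2 fold change of Cox7a1, 1.07 (edgeR SE 0.63, adjusted p 0.494), became -0.07 without NDD replicate 2. Cox7a2l had 105 and 172 CPM in NDD and 117, 135 and 114 CPM in WT, and NDD replicate 1 was its lowest library and NDD replicate 2 its highest. Its log2 fold change of 0.19 (SE 0.22) became -0.20 without NDD replicate 2. Ndufa4l2, a relative of Ndufa4 known to be induced by low oxygen, had 2 and 269 counts in NDD and 21, 174 and 9 in WT. Each group thus spanned over an order of magnitude, and the log2 fold change of 1.05 (SE 1.64) became -5.02 without NDD replicate 2.

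Complex V, ATP synthase, had 16 members, all tested, with a median level of 562 TPM. Its log2 fold changes spanned the narrowest range of the 5 complexes, from -0.12 to 0.32 with a median of 0.07. The log2 fold change was above 0 in 11 members and below 0 in 5. An unadjusted p under 0.05 was found in 0 of the 16, beside 11.2% of all tested genes. Atp5b, the catalytic beta subunit, had 1798 and 1871 CPM in NDD and 1741, 1890.3 and 1798 CPM in WT, fully interleaved (0.02, SE 0.12, edgeR adjusted p 0.946). Atp5a1, the alpha subunit, had 1420.3 and 1152 CPM in NDD and 1393, 1452 and 1349.5 CPM in WT. NDD replicate 2 was its lowest library and NDD replicate 1 lay within WT (-0.12, SE 0.14, edgeR adjusted p 0.697). Atp5c1, the gamma subunit of the central stalk, had 304 and 330.2 CPM in NDD and 287, 306 and 276 CPM in WT (0.13, SE 0.12). Atp5h, a subunit of the side stalk, had the largest log2 fold change of the complex, at 122 and 138 CPM in NDD and 98.7, 117 and 96.9 CPM in WT (0.32, SE 0.14, edgeR adjusted p 0.458). Its groups did not overlap, as in Atp5g1 and Atp5o. These 3 are 18.75% of the 16, near the 15.8% of all tested genes with NDD higher and no overlap.

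Atp5g1, Atp5g2 and Atp5g3 encode the same mature c subunit of the rotor from separate genes. In WT they held similar shares of their summed TPM, 29.2 to 30.7%, 35.0 to 39.2% and 31.5 to 34.4%. NDD replicate 1 lay close to these ranges, at 31.8%, 34.5% and 33.6%. NDD replicate 2 had 34.6%, 40.5% and 24.9%, with Atp5g3 below and the other pair above every other library. The log2 fold changes were 0.24 (SE 0.12) for Atp5g1, 0.09 (SE 0.15) for Atp5g2 and -0.10 (SE 0.15) for Atp5g3, and the latter pair changed sign without NDD replicate 2.

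Summed over all 87 members, TPM was 34483 and 33401 in NDD and 32216, 33162 and 30726 in WT. Both NDD sums were above all WT sums, at 33942 ± 765 (SD, n = 2) against 32035 ± 1228 (SD, n = 3), a ratio of 1.06. The members thus made up between 3.07 and 3.45% of all TPM in a library. Complex IV differed most, with 10328 and 10439 TPM in NDD and 9295, 9825 and 8566 TPM in WT, a ratio of 1.13 and no overlap. Complex I (8337 and 8241 TPM in NDD against 7625 to 7982 TPM in WT) and complex II (1093 and 1058 against 1026 to 1052) were also without overlap. Complexes III and V overlapped, with ratios of 1.01 and 1.02, and both took either sign as libraries were left out. The log2 ratio of complex III ran from -0.07 (without NDD replicate 1) to 0.09 (without NDD replicate 2), and that of complex V from -0.01 to 0.08 without the same libraries. With 1 library left out, the log2 ratio of complex IV ran from 0.12 (without WT replicate 3) to 0.22 (without WT replicate 2).

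**Figure D4:**
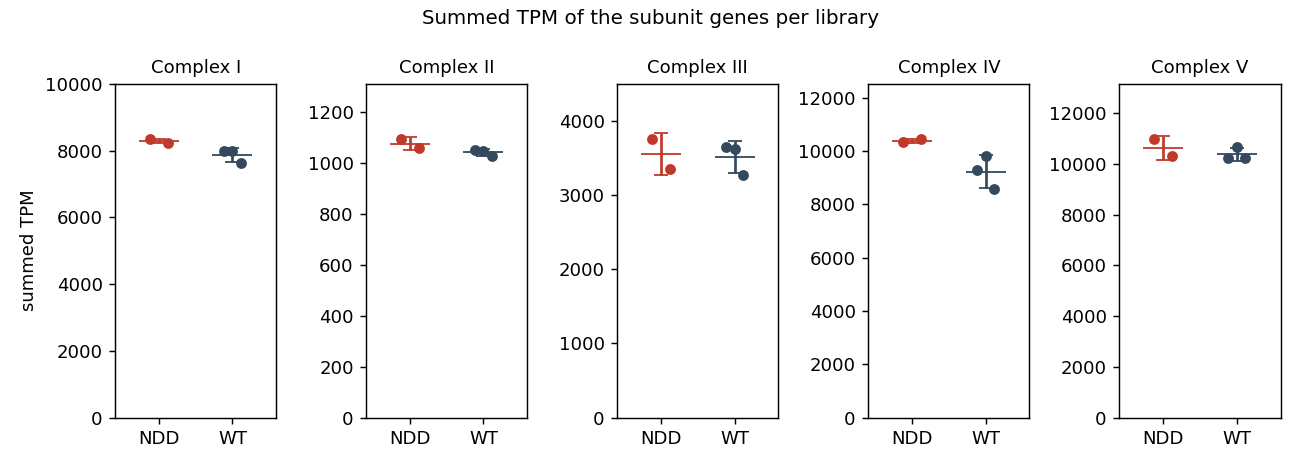
Summed TPM of the members of each complex, 1 point per library, with the mean and SD of NDD (red, n = 2) and WT (dark blue, n = 3); each panel starts at 0. In complex IV both NDD libraries are above the highest WT library at 9825, and in complexes III and V the groups overlap.

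The libraries of a group were not alike in these genes. The median deviation of the 82 tested members from the WT mean was 0.09 in NDD replicate 1 and 0.15 in NDD replicate 2 on the log2 CPM scale, and 0.005, 0.09 and -0.09 in WT replicates 1, 2 and 3. WT replicate 2 therefore lay as high as NDD replicate 1. It was above the WT mean in 75 of the 82 members, against 63 for NDD replicate 1 and 58 for NDD replicate 2. WT replicate 3 was the lowest WT library in 57 of the 82 members, against 21 for WT replicate 1 and 4 for WT replicate 2. By the median absolute log2 difference over members, NDD replicate 1 was closer to WT replicate 2 (0.07) and WT replicate 1 (0.11) than to NDD replicate 2 (0.12). The NDD libraries differed by more than 0.5 on the log2 scale in 7 members: Ndufa4l2, Cox7a1, Cox6b2, Ndufa6, Cox7a2l, Ndufv3 and Ndufa7 (Ndufv3 and Ndufa7 named after their values were seen). In all 7 NDD replicate 2 was the higher library.

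**Figure D5:**
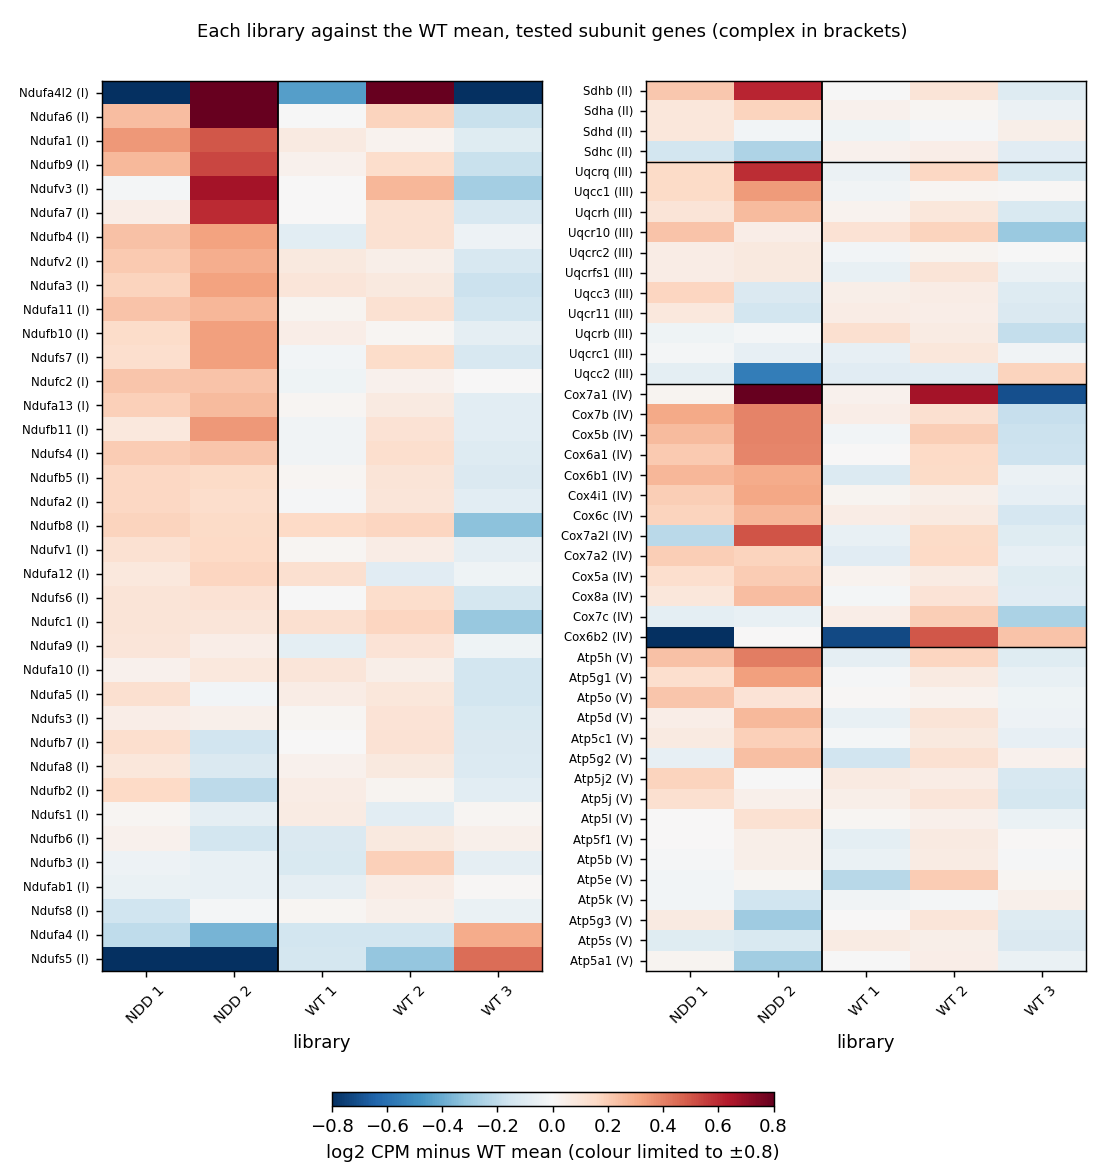
Log2 CPM of the tested members but 1, minus the WT mean of each, in rows by complex and in columns by library, with colour limited to 0.8 in either direction. Most rows of complex IV are red in both NDD columns, NDD replicate 2 holds many of the deepest colours, and WT replicate 3 is mostly blue. WT replicate 2 is also above the WT mean in all 13 tested members of complex IV.

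Markers of epithelium, of surface colonocytes and of dividing cells were set beside these values. Of the 10 epithelial markers 8 had log2 fold changes above 0 (median 0.14, beside 0.13 in the members), 6 were higher in NDD with no overlap (60% beside 15.8% of all tested genes) and 0 lower (beside 16.2%). Their summed levels were 14618 and 14310 CPM in NDD and 13071, 14254 and 13323 CPM in WT, so both NDD sums were above all WT sums. All 8 colonocyte markers had log2 fold changes above 0 (median 1.76), and none was at 0 counts in all libraries. With no overlap 6 were higher in NDD (75%, beside 15.8% of all tested genes) and 0 lower (beside 16.2%). Their summed levels were 6172 and 5690 CPM in NDD and 4013 to 4999 CPM in WT. Most of each sum was Car1 and Ceacam1, whose groups overlapped, with smaller log2 fold changes of 0.46 and 0.06. The colonocyte median was 0.93 without NDD replicate 2. All 10 proliferation markers had log2 fold changes below 0 (median -0.58), with summed levels of 2228 and 953 CPM in NDD and 2196 to 2516 CPM in WT. The proliferation sum of NDD replicate 1 lay inside the WT range, and leaving out NDD replicate 2 moved the median to -0.07, leaving out NDD replicate 1 to -1.37. WT replicate 3 had the lowest colonocyte sum, 4013 CPM. At an unadjusted p under 0.05 there were 5 of the colonocyte markers and 0 of the proliferation markers, and 0 genes of these 3 lists had an edgeR adjusted p under 0.05. The part of these cells in the differences of the subunit genes was not tested.

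Promoters were searched for motifs that transcription factors of nuclear mitochondrial genes are known to bind, from 250 bases before to 50 bases after the start in RefSeq (GRCm38.p6, the same assembly as mm10). Of the 87 members 72 had an entry, and both strands were searched. The NRF1 core GCGCATGCG was present in 8 of the 72, or 11.1%, beside 1.95% of 27025 gene promoters and 4.12% of the 10011 promoters of tested genes. The YY1 core AAGATGGCG was present in 7, or 9.72%, beside 1.64% and 3.62%. The ETS core CCGGAAG was present in 16, or 22.2%, beside 9.93% and 20.2%, and the CCAAT box in 32, or 44.4%, beside 41.1% and 43.2%. On the gene's strand alone the NRF1 core was present in 5 members, or 6.94%, beside 3.23% of the promoters of tested genes, and the YY1 core in 9.72% beside 2.72%. A match is a description of letters and not a bound site. The NRF1 core was found in Ndufa8, Ndufa11, Uqcrc1, Uqcr11, Cox6a1, Atp5g2, Atp5k and Atp5l, whose log2 fold changes lay between -0.09 and 0.30. Windows of 80 bases around it are shown for 1 member each of complexes I, IV and V, on the gene's strand, with the run that holds the core, read on one or both strands, in capitals. They lie on the minus strand at chr2:36049339-36049418 (Ndufa8), chr5:115349076-115349155 (Cox6a1) and chr15:102671048-102671127 (Atp5g2).
Ndufa8: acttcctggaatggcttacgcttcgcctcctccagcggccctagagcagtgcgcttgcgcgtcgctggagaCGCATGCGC
Cox6a1: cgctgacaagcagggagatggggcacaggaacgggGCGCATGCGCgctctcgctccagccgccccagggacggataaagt
Atp5g2: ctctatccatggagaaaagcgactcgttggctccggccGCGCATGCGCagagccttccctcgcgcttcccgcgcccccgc

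Genes that build, feed or regulate the complexes were taken from lists of pathway genes, and none was called by edgeR. Of 49 tested assembly factors 26 were above 0 and 23 below, with a median log2 fold change of 0.03. Electron carriers and quinone synthesis genes were split 8 to 9 (median -0.04), and a list of carriers and channels of the mitochondrial membranes (Slc25a3, Slc25a4, Slc25a5, Vdac1, Vdac2, Vdac3 and Ucp2) with the ATP synthase inhibitor Atpif1 4 to 4 (median 0.01). Genes of the tricarboxylic acid cycle and pyruvate entry were above 0 in 13 of 20 (median 0.06). The regulators were split 8 to 9 (median -0.07). Ppargc1a, a coactivator that drives mitochondrial biogenesis, had 31.9 and 60.3 CPM in NDD and 24.6, 22.3 and 13.7 CPM in WT, without overlap (1.19, SE 0.35, edgeR adjusted p 0.390). Nrf1, which binds the core searched above, had 38.7 and 28.9 CPM in NDD and 39.3, 42.3 and 44.0 CPM in WT, also without overlap but with NDD lower (-0.31, SE 0.17, edgeR adjusted p 0.482). The subunits of the mitochondrial ribosome, which translates the mitochondrial DNA-encoded subunits, were taken by symbol (Mrpl or Mrps and a digit) after the tables had been seen, so they are given as a description. Most lay on the other side of 0 from the members: 65 of 78 were below 0 (median -0.17), 31 were lower in NDD with no overlap (39.7%, beside 16.2% of all tested genes), and 3 were higher with no overlap (3.85%, beside 15.8%).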

How the data were processed

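RNA-seq of 5 libraries was used. Per the labels' protocols, RNA was purified with the PureLink RNA Mini kit and libraries were made with Illumina Stranded mRNA Prep. The authors deposited 1 table of estimated counts per gene and 1 of TPM, which per the submitters' processing notes came from Bowtie2, RSEM and the mm10 build; versions, annotation and strand setting are not given in the sources used here. The deposited estimated counts were whole numbers and were used as they stand; a rule for reads that fit several places can move counts between near-identical genes.

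Counts were tested with edgeR 4.0.16 (R 4.3.3; TMM factors, its expression filter, robust quasi-likelihood fit, prior count 0.125) over all 13501 genes that passed, with Benjamini-Hochberg adjustment and a threshold of 0.05. CPM used TMM library sizes. DESeq2 1.42.0 and limma 3.58.1 on log2(TPM + 1) and log2(TPM + 0.1) were alternatives. Summed TPM was described without a test. On simulated counts for this comparison, with 200 of 13306 genes changed by a log2 of 2, edgeR recovered 150 (75%) with 12 false calls. Most members differed far less, with a median log2 fold change of 0.13, and recovery at that size was not simulated. Copies were found by shared 31-base runs in GENCODE M21, and promoters came from RefSeq.

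The members and lists were chosen with earlier results of these data known. Genes were named by rule: all called members, the 3 with the highest TPM per complex, the largest log2 fold change in each direction per complex at a mean log2 CPM of at least 2, core subunits and tissue isoforms. A core subunit that the rule names is not reported here. Others were named after their values were seen, as were the examples from the other lists. Leaving out each library for the member counts, summed TPM and marker medians was added after seeing the data. The labels do not say that replicate numbers pair the libraries. Correlations of deviations within the 2 possible pairs were 0.01 for replicate 1 and 0.30 for replicate 2, which do not settle it.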

Additional observations from a re-analysis of the deposited data

How the results depend on the processing

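The number of genes called was 12, and it was 58 without the expression filter, 4 with at least 10 counts in every library, 361 with DESeq2, 33 at an adjusted p under 0.10 and 0 to 1207 without each library in turn (0 without WT replicate 1, where 1211 had an unadjusted p under 0.05 in edgeR). With the replicate number as a block, 33 genes were called, 1 of them a member, Ndufs5, and the median log2 fold change of the tested members was 0.085, with 53 of 82 above 0. The number of members called was 0 with at least 10 counts in every library, a filter that removes Ndufs5, and 0 with copies summed. It was 0 without WT replicate 1 or WT replicate 2, and 1 without WT replicate 3. With summed CPM the log2 ratio was 0.12 for complex I and 0.080 for complex II, beside 0.076 and 0.046 with summed TPM. The log2 ratio of summed TPM without each library ran from 0.022 to 0.069 for complex II, from -0.066 to 0.094 for complex III and from -0.011 to 0.079 for complex V.

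Signs turned for named members mostly near 0. With copies summed Ndufs5 was 0.065. Under the block Ndufa4l2 was -0.52, Ndufs3 -0.017 and Uqcr10 -0.0086. With limma on TPM, Ndufa4l2 was -0.29 (pseudocount 0.1), and Atp5b was -0.0046 with either pseudocount and also without a filter. Without each library in turn the log2 fold change took both signs in 15 named members: from -5.02 to 3.13 for Ndufa4l2, from -0.081 to 0.028 for Ndufs1, from -0.018 to 0.11 for Ndufs3, from -0.027 to 0.10 for Sdhd, from -0.0071 to 0.23 for Uqcr10, from -0.15 to 0.095 for Uqcr11, from -0.12 to 0.034 for Uqcrb, from -0.073 to 0.018 for Uqcrc1, from -0.067 to 1.70 for Cox7a1, from -0.20 to 0.49 for Cox7a2l, from -0.20 to 0.035 for Cox7c, from -0.29 to 0.037 for Atp5a1, from -0.0068 to 0.065 for Atp5b, from -0.058 to 0.23 for Atp5g2 and from -0.30 to 0.083 for Atp5g3. Ndufa4l2, Cox7a1, Cox7a2l, Atp5a1, Atp5g2 and Atp5g3 were among those whose sign turned without NDD replicate 2. In Uqcr11 NDD replicate 1 (93.0 CPM) was above all WT libraries and NDD replicate 2 (79.5 CPM) below them. Except where the construction shows it, the cause was not tested. On the gene's strand alone the NRF1 core and the ETS core were each in 6.94%, the YY1 core in 9.72% and the CCAAT box in 22.2% of member promoters, beside 3.23%, 11.3%, 2.72% and 25.3% of those of tested genes in the order NRF1, ETS, YY1 and CCAAT. With 2 and 3 libraries most core subunits of complexes I and V had differences of the size of their standard errors or less, so differences this small were not resolved.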
